A study of Mus musculus with 4 samples.

Results

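Gfap-high astrocytes are the cells of this series that passed an astrocyte gate and in which Gfap made up at least 0.1% of all unique transcript counts (UMIs). They numbered 201 of 55902 kept cells (0.36%), and 201 of the 3491 cells in the astrocyte gate (5.76%). The members were chosen by their counts. Cells were kept from 500 UMIs and 300 detected genes upward if mitochondrial transcripts were at most 20% of their UMIs. The astrocyte gate asked for at least 4 UMIs summed over Aqp4, Gja1, Slc1a2, Aldoc and Slc4a4. It allowed at most 2 UMIs summed over 6 microglial genes (P2ry12, Tmem119, P2ry13, Gpr34, Olfml3 and Fcrls), at most 3 over the myelin genes Mag, Mog and Mobp, at most 1 of Dcx, and 0 of Ptprc, Tmem212 and Ccdc153. Levels of these genes in the members are therefore a description of the choice. The other 3290 cells of the gate are called Gfap-low astrocytes here.

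The 4 libraries came from the ipsilateral hemisphere of wild-type mice 14 days after an ischemic stroke. All 4 groups had the stroke and received hydrogel microspheres in the infarct cavity on day 5. MAPS received the microspheres alone. In the other 3 groups the microspheres carried extracellular vesicles (EV) from astrocytes that were untreated (UT EV+MAPS), treated with IL-1a, TNFa and C1q (IL-1a TNFa C1q EV+MAPS), or treated with IL-4 and C1q (IL-4 C1q EV+MAPS). These are shortened below to MAPS, UT EV, then IL-1a/TNFa/C1q EV, and last IL-4/C1q EV, and runs of 4 values follow this order. Healthy mice named in the labels are not analysed here. Each group is 1 library, and the number of animals in a library is not stated, so there is no replicate error and no test: intervals given are exact 95% intervals that cover counting error only. They do not cover the spread between cells or animals, and a single cell often held much of a gene's count.

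Astrocytes are the glial cells that clear glutamate and potassium, move water at blood vessels and surface membranes, and supply neurons with metabolites. After an injury they enlarge and raise the intermediate filament proteins Gfap and vimentin, and those beside an infarct form a border around it. Gfap is also high in healthy astrocytes of white matter, of the brain surface (the glia limitans) and of the subventricular zone, so a high Gfap level is by itself no proof of a reaction to injury.

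MAPS gave 74 members of 13833 kept cells, or 0.535% (95% Clopper-Pearson interval 0.420 to 0.671%). UT EV gave 49 of 12766, or 0.384% (0.284 to 0.507%). IL-1a/TNFa/C1q EV gave 20 of 14978, or 0.134% (0.0816 to 0.206%). IL-4/C1q EV gave 58 of 14325, or 0.405% (0.308 to 0.523%). The IL-1a/TNFa/C1q EV interval lay below the other 3, which overlapped one another. Against the astrocyte gate the order was another one: 4.46% of 1660 cells (3.52 to 5.56%) in MAPS, 6.67% of 735 (4.97 to 8.72%) in UT EV, 4.14% of 483 (2.55 to 6.32%) in IL-1a/TNFa/C1q EV and 9.46% of 613 (7.26 to 12.1%) in IL-4/C1q EV. The IL-4/C1q EV interval lay above those of MAPS and IL-1a/TNFa/C1q EV and overlapped that of UT EV. These shares moved with depth. The members' median UMI count was 2103.5, 958, 2648.5 and 1169.5. The lowest barcode of the IL-1a/TNFa/C1q EV library held 1233 UMIs, against 500 kept in each of the others, and with 1233 UMIs as the floor everywhere the share of the gate was 3.24%, 4.44%, 4.14% and 6.41%. The share of kept cells was then 0.321% (0.231 to 0.436%), 0.199% (0.125 to 0.302%), 0.134% and 0.227% (0.151 to 0.329%), so that the IL-1a/TNFa/C1q EV interval overlapped those of UT EV and IL-4/C1q EV and lay below MAPS alone.

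**Figure D1:**
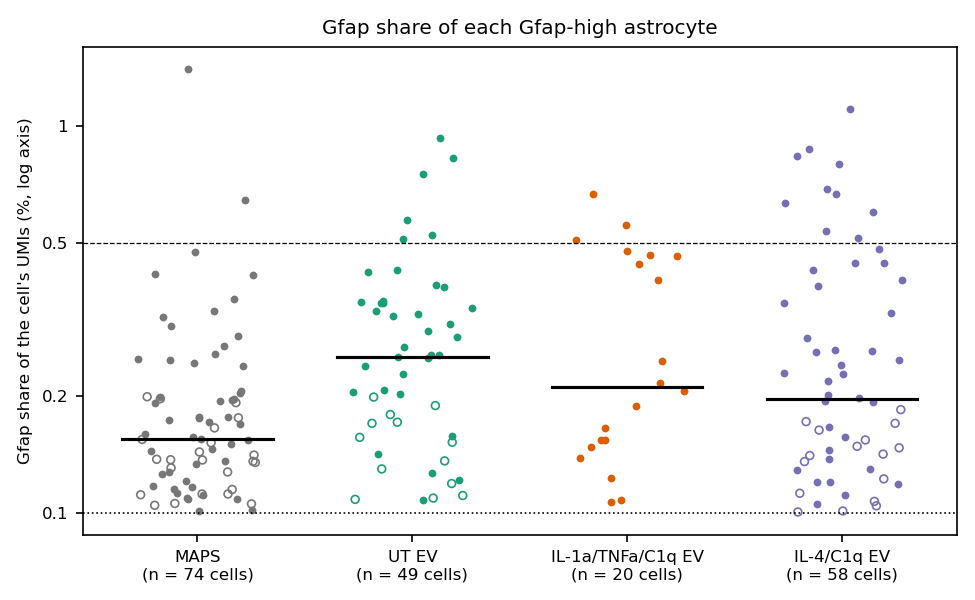
Gfap share of UMIs in each of the 201 members, by library, with the 0.1% border of the rule. The vertical axis is logarithmic; points are single cells, open ones with 1 Gfap UMI, the bar in each column is the median (0.155%, 0.252%, 0.212% and 0.197%), and 21 cells lie at or above the dashed line at 0.5%.

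Most members, 180 of 201, held under 0.5% Gfap. Their median Gfap share of UMIs was 0.155%, 0.252%, 0.212% and 0.197%, and the highest cell reached 1.40%, 0.930%, 0.667% and 1.10%. The 21 members at 0.5% or more were 2, 6, 3 and 10 in the 4 libraries. A share between 0.1 and 0.12% was held by 33 members, and 32 Gfap-low cells had 0.08 to 0.1%. In 52 members (23, 13, 0 and 16) the place in the group rested on 1 Gfap UMI, which is enough only in cells of at most 1000 UMIs; 113 members held at least 3 Gfap UMIs and 44 held at least 10. The plot of Gfap share by cell shows this spread.

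The members' Gfap level was fixed by the rule, and the values in other cells show the background. Summed over cells, Gfap was 2906, 3052, 3293 and 3456 CPM (UMIs scaled to a total of 1000000 per cell group, a 3′ count without length correction) in the members and 83.5, 74.7, 55.8 and 46.8 CPM in Gfap-low astrocytes. Microglia, which should lack Gfap, held between 3.08 and 7.40 CPM. Microglia, oligodendrocytes and endothelial cells were gated to hold at most 1 UMI summed over Aqp4, Gja1, Slc1a2, Aldoc and Slc4a4. Cells with more astrocyte RNA were thus left out of this background, which may be too low. A Gfap share of 0.1% or more was found in 1 of 6236, 1 of 4872, 2 of 5369 and 4 of 5017 microglia. No oligodendrocyte passed it, and 1 of 94, 4 of 1379, 0 of 1254 and 4 of 1703 endothelial cells did. Between 41 and 63 kept barcodes were shared by a pair of libraries, and no barcode was that of a member in both libraries of a pair. A doublet caller marked 2 of the 201 members (1 each in UT EV and IL-4/C1q EV).

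The astrocyte label was compared with genes that the rule did not use. All 20 further astrocyte genes on a list that includes Slc1a3, Sox9, Mlc1 and Aldh1l1 had UMIs in the members of every library. They summed to 60548, 30611, 34595 and 38639 CPM in the members, to 50128, 42333, 45706 and 31601 CPM in Gfap-low astrocytes and to 26549, 34938, 33568 and 28840 CPM in microglia. The largest part was Cst3, cystatin C, which microglia also make, and in UT EV the microglial sum was above that of the members. A list of 18 genes for water, ion and glutamate handling (none of them in the rule) summed to 21436, 5521, 4986 and 7044 CPM in the members, where microglia held between 568 and 1370 CPM. Markers of other cells were low as a whole and uneven between libraries. The 10 microglial markers, of which 10, 9, 8 and 8 had a UMI, summed to 1118, 1256, 2089 and 1228 CPM against 42305 to 53283 CPM in microglia; Tmem119 was at 0 in UT EV and IL-4/C1q EV, and P2ry12 at 0 in IL-1a/TNFa/C1q EV, both genes that the gate limits. Of 10 endothelial markers 3, 10, 4 and 5 had a UMI and they summed to 11.1, 1522, 168 and 151 CPM, and 1 UT EV member held 84.9% of that library's sum. Of 5 erythroid genes 1, 5, 4 and 4 had a UMI, at 3.72, 9307, 244 and 595 CPM, again with 96.2% of the UT EV sum in 1 cell. The 10 T and NK cell markers summed to 52.0, 8.85, 427 and 9.44 CPM with 5, 1, 4 and 1 detected, and 1 cell held 92.9% of the IL-1a/TNFa/C1q EV sum; Cd3e was at 0 in the 3 EV libraries. Choroid plexus markers (7, 7, 4 and 4 of 10) reached 509 to 1663 CPM, with Kl at 0 in all 4, and monocyte markers (6 of 10 in each) reached 149 to 335 CPM. Pericyte and fibroblast markers (6, 2, 4 and 4 of 10) reached 70.8 to 149 CPM, with Kcnj8, Abcc9 and Lum at 0 throughout, and ependymal markers (3, 5, 6 and 7 of 10) reached 100 to 463 CPM. Oligodendrocyte markers (10, 7, 8 and 8 of 10) reached 387 to 702 CPM and those of their precursors (6, 8, 2 and 6 of 10) 85.5 to 779 CPM. Neuronal markers (7, 7, 3 and 5 of 10) reached 88.5 to 230 CPM and neutrophil markers (1, 0, 2 and 3 of 10) at most 30.5 CPM, with Ly6g at 0. Because single cells carried several of these sums, genes named below between libraries are given, where stated, without their top cell, that is with the cell holding most of the gene's UMIs left out of both libraries.

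Besides Gfap, 13 genes were beyond 1.5-fold higher in members than in Gfap-low astrocytes in all 4 libraries, with the whole interval past 1.5. Among 3119 genes with at least 50 UMIs in each library's gate, that is 0.449% called higher (14 genes with Gfap) and 0.224% called lower (7 genes). The rule made this contrast, so the counts and ratios are a description. Vim, the filament protein vimentin, stood at 728, 947, 1205 and 1379 CPM in the members and 5.32 to 11.4 times its Gfap-low level. S100a4, a small calcium-binding protein, was 6.79 to 8.15 times higher at 48.3, 513, 396 and 293 CPM, with 61.5%, 69.0%, 53.8% and 64.5% of its member UMIs in 1 cell. Igfbp5, a secreted binder of insulin-like growth factors, was 4.61 to 14.3 times higher. These 3 genes were lowest in relation to Gfap-low cells in different libraries, and no library stood apart in all of them.

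Of the FXYD proteins, small regulators of ion transport, 3 were among the 13. Fxyd1 had 784, 3716, 4483 and 4835 CPM, or 1.84, 4.55, 5.49 and 8.50 times the Gfap-low level. Fxyd6 was 8.59, 3.97, 12 and 17.7 times higher, and Fxyd7 3.18, 20.9, 4.02 and 35.1 times. The sizes of the Fxyd7 ratios rested on few UMIs (12, 77, 18 and 38), with 57.1% of the UT EV count in 1 cell. Dbi, the acyl-CoA-binding protein, stood at 3608, 10643, 15323 and 14041 CPM and 2.21 to 3.87 times the Gfap-low level. Fbxo2, a ubiquitin ligase subunit that binds glycoproteins, was 2.51, 6.74, 8.57 and 5.50 times higher. Cpe, carboxypeptidase E, and Gpm6b, a membrane glycoprotein, were nearer to the border at 1.99 to 3.79 and 1.89 to 2.65 times.

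**Figure D2:**
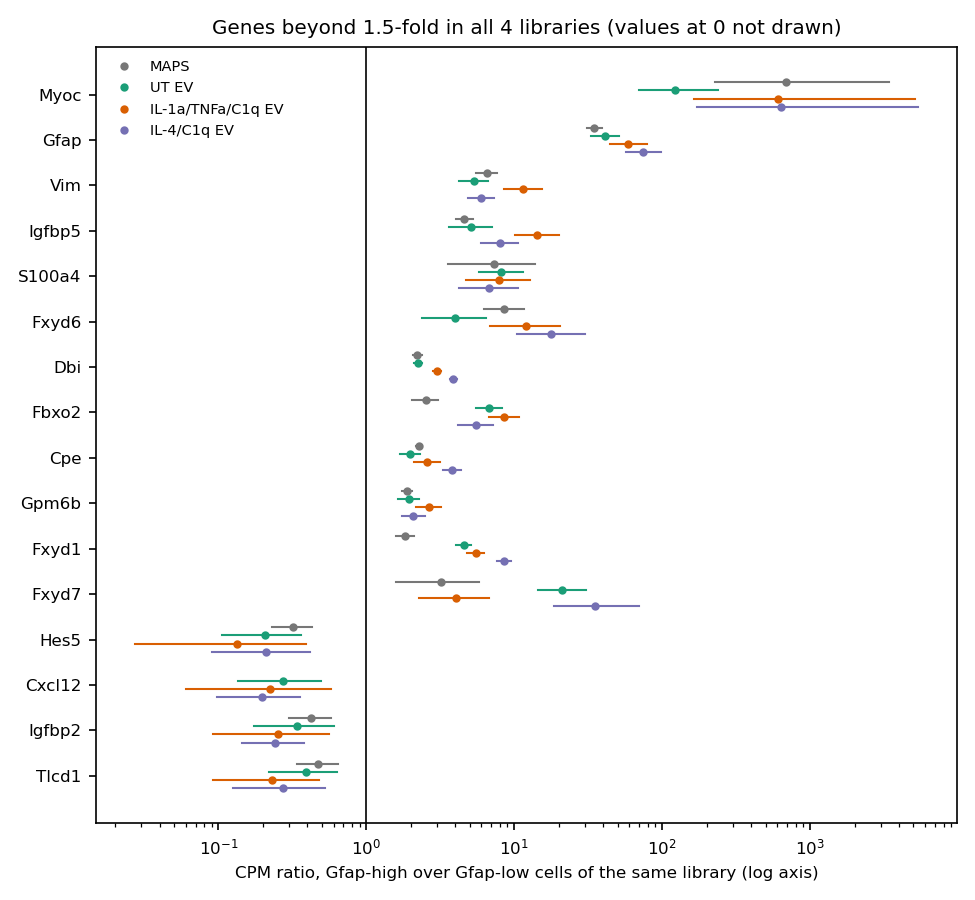
Ratio of CPM in Gfap-high over Gfap-low astrocytes for the named genes, 1 point per library with its 95% counting interval, on a log axis. Myoc lies farthest to the right in all 4 libraries; Npy and Mgp, and Cxcl12 in MAPS, are not drawn because members held 0 UMIs in at least 1 library.

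Genes lower in the members were fewer and rested on smaller counts. Hes5, a Notch target that marks less mature astrocytes and progenitors, had 160, 106, 45.7 and 75.5 CPM in the members and 500, 516, 343 and 359 CPM in Gfap-low cells, a ratio of 0.32, 0.21, 0.13 and 0.21. Igfbp2 had ratios of 0.42, 0.34, 0.25 and 0.24, and Tlcd1, a membrane lipid regulator, 0.47, 0.39, 0.23 and 0.28. Cxcl12, Npy and Mgp were lower too, with 0 to 11 member UMIs per library. Over 1 summed UMI of fibroblast and mural markers was held by 7.06%, 6.41%, 1.94% and 6.67% of Gfap-low cells and by 1.35%, 0%, 0% and 0% of members. A choroid plexus marker UMI (Folr1, Kl, Clic6 or Kcnj13) was held by 7.76%, 2.48%, 2.59% and 5.05% of Gfap-low cells. In members it was 1.35%, 4.08%, 10% and 10.3% (1, 2, 2 and 6 cells), so the EV libraries went the other way. When cells with vessel, fibroblast, choroid plexus or lymphoid markers were left out, Hes5 was the only one of the 7 still called. Of the 14 higher genes, 11 stayed called then; Fxyd6, Fxyd7 and Gpm6b did not. In a separate setting, which kept those cells and left out cells with over 1 UMI of C1qa, C1qb, C1qc, Tyrobp and Ctss together, only Gfap, Cpe and Fbxo2 of the 14 were still called. That setting left 38, 33, 9 and 38 members, so intervals were wider as well, and the part of lower counts in the lost calls was not tested.

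Myoc had the largest ratio in this contrast. It encodes myocilin, a secreted glycoprotein known from the eye, and in the brain its RNA has been placed in astrocytes of the surface and of white matter. Members held 86, 125, 71 and 99 Myoc UMIs (320, 1106, 1083 and 935 CPM). Gfap-low astrocytes held 0.463, 9.0, 1.77 and 1.46 CPM. The ratios were 690 (interval 228 to 3413), 123 (69.3 to 237), 611 (163 to 5144) and 640 (172 to 5355). Myoc was nonetheless a gene of few members: 3, 8, 4 and 10 cells, 25 of 201 in all, had a UMI. Only 9 Gfap-low cells and 13 of 21494 microglia had one.

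Members with Myoc differed from the other members of their library in further genes. This split was made after the values had been seen, and the numbers below describe it. It also sorts by depth: the median UMI count was 4796, 5033.5, 5405.5 and 2315.5 in members with Myoc and 1777, 902, 2025.5 and 1001 in the others. Aqp4, the water channel of astrocyte end-feet, stood at 7068, 2795, 2043 and 3266 CPM in members with Myoc and at 1293, 1299, 777 and 2669 CPM in the others. Fbxo2 stood at 1674, 2132, 3698 and 1684 CPM against 332, 791, 711 and 404 CPM, and Fxyd6 at 868, 426, 681 and 516 CPM against 166, 70.6, 244 and 286 CPM. All 3 were higher with Myoc in every library. Slc1a3, a glutamate transporter, went the other way in every library (1798, 545, 292 and 309 CPM against 4526, 875, 1221 and 1263 CPM). Summed Vim did so too, at 310, 498, 973 and 1203 CPM with Myoc and 755, 1214, 1310 and 1445 CPM without, but few cells carried it. In MAPS single cells held 63 and 62 of 196 Vim UMIs, and all members with Myoc held 5. In IL-4/C1q EV 1 cell held 50 of 146, and all members with Myoc held 35. Whether Vim keeps this direction without such cells was not tested. Gfap itself was lower with Myoc in MAPS (2232 against 2949 CPM) and higher in the 3 EV libraries (3127, 4914 and 4125 against 3008, 2554 and 3203 CPM).

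C3 and Lcn2 are both classed with the reaction to injury. C3 is the central complement protein and Lcn2, lipocalin-2, a secreted iron-siderophore carrier. Myoc was found in 5 of the 30 members with C3 UMIs and in 0 of the 12 with Lcn2, beside 25 of all 201 members. All 5 were in IL-4/C1q EV, where 16 of 58 members had C3 and 10 had Myoc. Of those 12, 9 had C3: 5 of 5 in IL-1a/TNFa/C1q EV, 4 of 5 in IL-4/C1q EV and 0 of 2 in UT EV. A UMI of Vim, Serpina3n, C3, C4b or Lcn2 was found in 40, 30, 18 and 35 members (54.1%, 61.2%, 90.0% and 60.3%); the IL-1a/TNFa/C1q EV members were also the deepest, and shares of cells with a UMI rise with depth. The other members, 78 of 201, were Gfap-high with no UMI of any of these 5 genes.

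The 21 members with at least 0.5% Gfap were set beside the others as a description, since this split uses the rule's own measure and its upper class holds 2, 6, 3 and 10 cells. Vim stood at 3168, 2028, 885 and 2908 CPM in them and at 493, 854, 1279 and 895 CPM in the other members, so that it was higher in 3 libraries and lower in IL-1a/TNFa/C1q EV. S100a6, a calcium-binding protein, stood at 591, 4957, 4827 and 6208 CPM against 204, 2074, 4571 and 2635 CPM, with the IL-1a/TNFa/C1q EV values near each other.

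**Figure D3:**
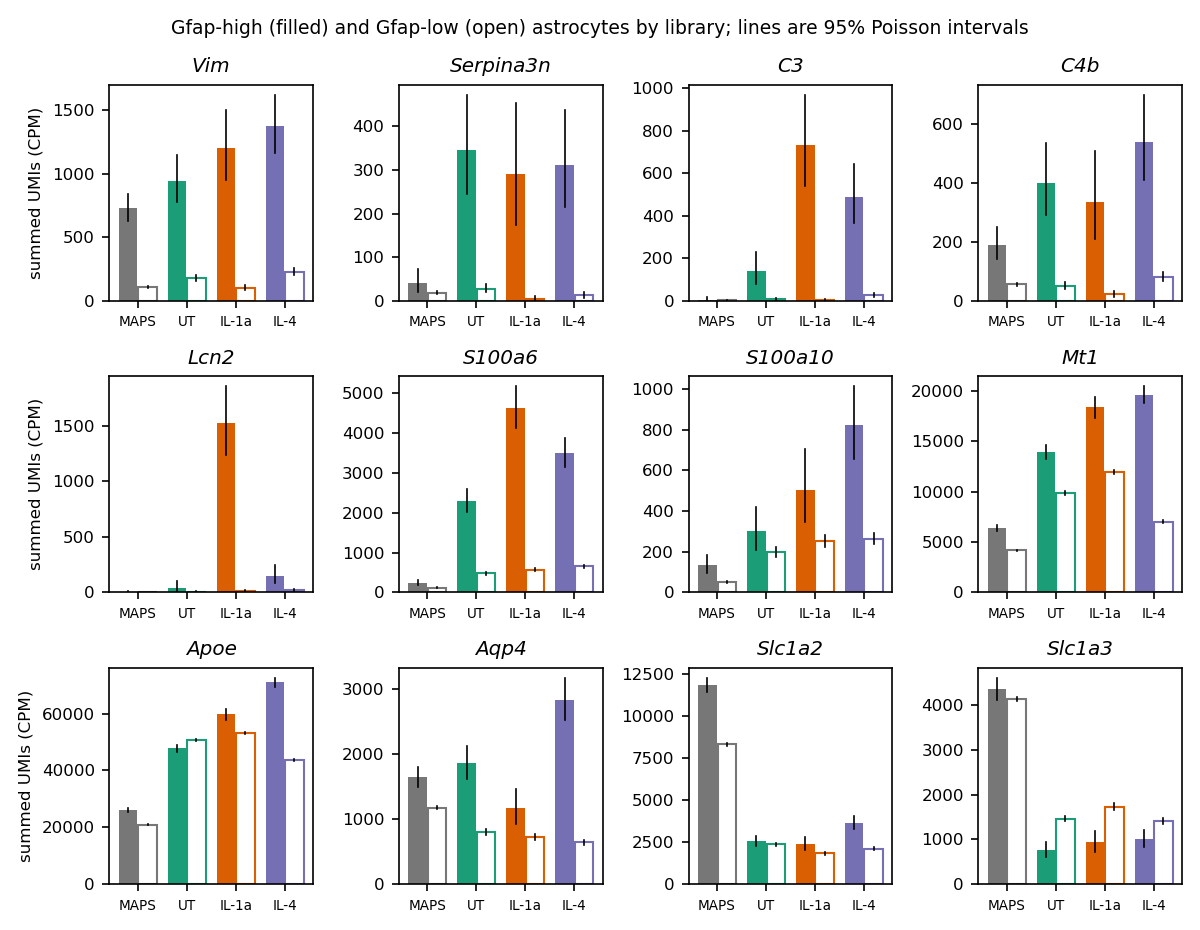
CPM of 12 genes in the members of each library (filled bars) and in Gfap-low astrocytes (open bars), with exact 95% Poisson intervals on linear axes that start at 0; UT, IL-1a and IL-4 stand for the EV libraries. C3 goes from 3.72 CPM in MAPS to 732 CPM in IL-1a/TNFa/C1q EV, and Slc1a3 and Slc1a2 are highest in MAPS.

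The summed level of complement C3 differed between libraries. In MAPS the members held 1 C3 UMI (3.72 CPM, Poisson interval 0.0941 to 20.7). In UT EV they held 16 (142 CPM, 80.9 to 230), in IL-1a/TNFa/C1q EV 48 (732 CPM, 540 to 970) and in IL-4/C1q EV 52 (491 CPM, 367 to 644). The level was lowest in MAPS, then UT EV, and the intervals of the cytokine-derived EV libraries overlapped each other while lying above UT EV. C3 UMIs were in 1, 6, 7 and 16 members. As a mean over members of each cell's own CPM, C3 was 6.88, 227, 620 and 435, so UT EV was nearer to the other EV libraries than in the sums. With every cell thinned to 1000 UMIs and shallower cells left out (29, 25, 0 and 24 members), 2.22%, 12.5%, 25% and 23.5% of members had a C3 UMI (1.35%, 12.2%, 35.0% and 27.6% before thinning). These are shares of only 45, 24, 20 and 34 cells, and a difference between the EV libraries at equal depth was not tested. After the same thinning Gfap-low astrocytes had 0 to 0.459% and microglia, which make C3, 0.849 to 1.99%, so the members of the EV libraries stood above the free-RNA level. Other reactive genes followed in part: Serpina3n, a secreted protease inhibitor, stood at 40.9, 345, 290 and 312 CPM, and C4b, another complement protein, at 190, 398, 335 and 538 CPM, with the 3 EV libraries overlapping for Serpina3n. In relation to Gfap-low cells C3 was 1.85 (0.0436 to 12.3), 20.5 (8.73 to 50.4), 275 (88.8 to 1382) and 18.7 (12 to 29.4) times higher, Serpina3n 2.21, 12.5, 54.5 and 23.7 times, and C4b 3.39, 7.99, 15.1 and 6.52 times; these 3 genes were under 50 UMIs in at least 1 library's gate and so were not among the genes counted.

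IL-4/C1q EV against UT EV addresses what the vesicles of IL-4/C1q-treated astrocytes add to those of untreated ones. With 627 genes at 50 UMIs or more over the 2 libraries, 7 were called higher (1.12%) and 19 lower (3.03%). Of these, 5 and 4 were still called without the top cell. C3 was 3.47 times higher (1.95 to 6.51; 3.99 without the top cell), S100a10, a membrane-associated partner of annexin on the A2-type list, 2.73 times (1.82 to 4.19; 2.69), and Ntrk2, the receptor for the neurotrophin BDNF, 2.34 times (1.76 to 3.12; 2.30). Fabp7, a brain fatty acid-binding protein, was 2.19 times higher (1.69 to 2.86; 2.12). Hspa5 and Gsn, called at 2.29 and 2.73 times, were no longer called without the top cell (2.14 and 2.26 times). In Gfap-low astrocytes the same comparison gave 3.80 for C3, 1.33 for S100a10, 0.95 for Ntrk2 and 0.38 for Fabp7, so Fabp7 had the opposite direction there. The receptor for IL-4 itself, Il4ra, had 3, 0, 0 and 1 UMIs in the members of the 4 libraries.

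Immediate early genes, the transcription factors induced within minutes of a stimulus or of tissue handling, were lower in IL-4/C1q EV members than in UT EV members. Of 17 listed genes 4 were tested, all 4 were lower and 3 were called, with a median log2 ratio of -2.0 against -0.09 over all genes tested. Fos stood at 246 against 1124 CPM, a ratio of 0.22 (0.14 to 0.34; 0.24 without the top cell), Junb at 189 against 840 CPM (0.22; 0.28 without it), and Jun at 208 against 752 CPM (0.28; 0.30). The list summed to 1947, 5069, 2561 and 1605 CPM over the 4 libraries, highest in UT EV. Few UT EV cells carried much of this: the top cells held 45, 32 and 23 of 127 Fos UMIs and 40, 23 and 13 of 95 Junb UMIs. A Fos UMI was found in 16 of 58 IL-4/C1q EV members and 16 of 49 UT EV members. As a mean over members of each cell's own CPM, Fos was 278 against 484 and Junb 199 against 324, a smaller difference than in the sums. In Gfap-low astrocytes Fos and Junb were 1.17 and 1.24 times higher in IL-4/C1q EV. Microglia of these libraries held 16343 to 32959 CPM of the list, and the part of their free RNA in the members' values was not tested. Agt, angiotensinogen, was also lower at 217 against 708 CPM (0.31; 0.29 without the top cell). The lower calls of Ctla2a (0.06), Tmsb10 (0.25), Gng11 (0.20) and Itm2a (0.17) were lost without the top cell, which held 57.8 to 95.5% of their UT EV UMIs.

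**Figure D4:**
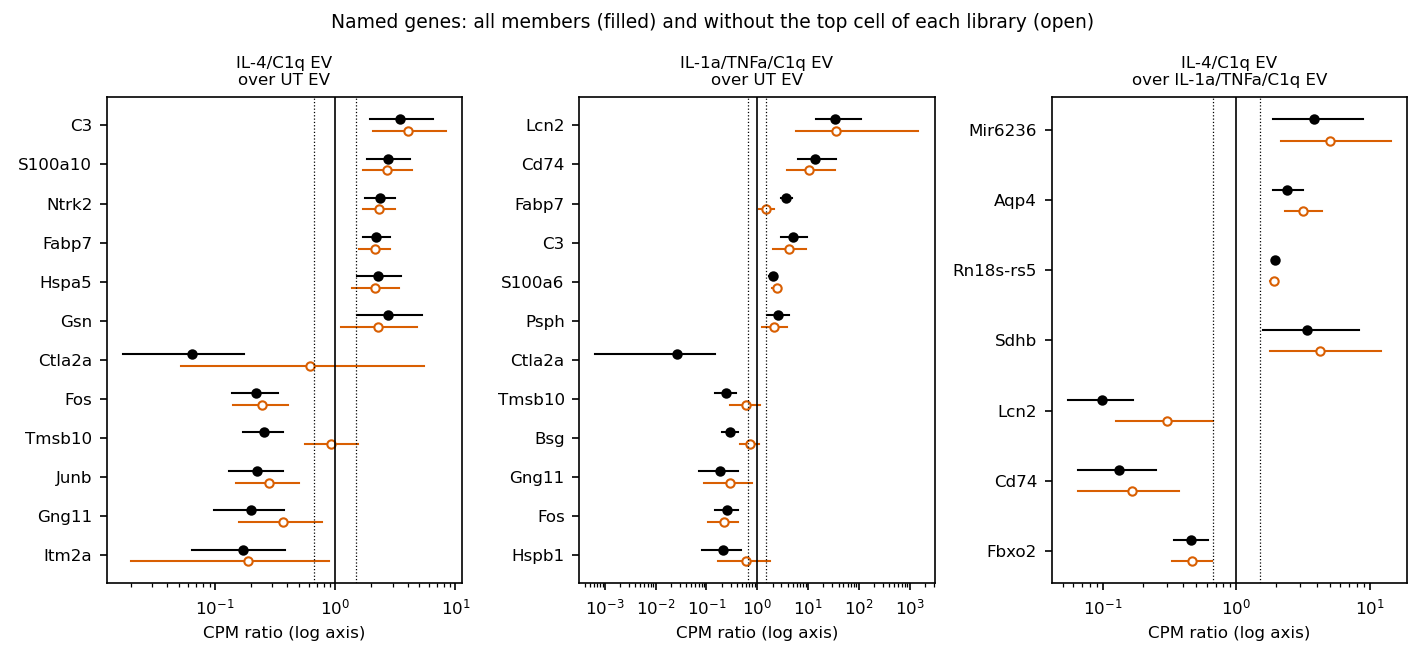
Ratio of CPM in the members for the named genes of the 3 comparisons between EV libraries, on a log axis, with 95% counting intervals; open points leave out the top cell of each library, and dotted lines mark 1.5-fold either way. C3 keeps its side in both comparisons with UT EV, while Tmsb10 moves toward 1; the Ctla2a value without the top cell in IL-1a/TNFa/C1q EV against UT EV is 0 and is not drawn.

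IL-1a/TNFa/C1q EV against UT EV shares its control with the comparison above. Here 540 genes were tested, 9 were called higher (1.67%) and 18 lower (3.33%), and 6 of each were still called without the top cell. C3 was 5.17 times higher (2.88 to 9.75; 4.17 without the top cell). In Gfap-low astrocytes C3 was 0.38 times the UT EV level. Lcn2 stood at 0, 44.2, 1525 and 151 CPM over the 4 libraries. It was 34.5 times higher than in UT EV (14.3 to 108, and 36.0 without the top cell), with 80.0% of the UMIs in 1 cell of each library. The counts were 100 UMIs in 5 IL-1a/TNFa/C1q EV members against 5 UMIs in 2 UT EV members. Without the top cell the ratio rests on 1 UT EV UMI. S100a6 was 2.01 times higher (1.70 to 2.38; 2.44), and Mt3, a metallothionein of the brain, 1.69 times (1.54 to 1.85; 1.75). Cd74, the MHC class II chaperone, was 13.8 times higher (6.27 to 35.9; 10.3), from 56 against 7 UMIs. This is a gene of myeloid cells as well: the microglial marker sum was 2089 CPM in IL-1a/TNFa/C1q EV members and 1179 CPM without their top cell. With the stricter myeloid exclusion, which left 9 members there, Cd74 kept its direction. How much of the Cd74 level comes from myeloid RNA was not tested. Fabp7 was 3.74 times higher (2.89 to 4.86) but 1.52 times without the top cell, which held 67.9% of the count, and with the stricter myeloid exclusion its log2 ratio turned to -0.21. Psph was called at 2.56 times but not without the top cell (2.16). Fos was lower at 0.26 (0.15 to 0.42; 0.22 without the top cell), and Agt at 0.28 (0.14 to 0.51; 0.11). Ctla2a, Tmsb10, Bsg, Gng11, Hspb1 and Sparc were called lower and were not called without the top cell. Il1r1 and Tnfrsf1a, the receptors for IL-1 and TNF, had 1, 2, 1 and 0 and 17, 9, 3 and 8 member UMIs over the 4 libraries.

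Set directly against each other, the cytokine-derived EV libraries differed in few genes of the members. Of 500 tested genes, IL-4/C1q EV had 6 called higher (1.20%) and 4 lower (0.80%) than IL-1a/TNFa/C1q EV, and 6 and 2 of them were still called without the top cell. Aqp4 was 2.41 times higher in IL-4/C1q EV (1.87 to 3.14; 3.15 without the top cell). Over the libraries it stood at 1639, 1858, 1174 and 2833 CPM, and in Gfap-low astrocytes the ratio was 0.89. Aqp4 is among the genes that the gate sums, so its level describes the choice of cells. The gate asks for a fixed UMI count, which is a larger share of a shallow cell. Members' median UMI count was 1169.5 in IL-4/C1q EV and 2648.5 in IL-1a/TNFa/C1q EV. With the 1233 UMI floor, and with thinning, no named gene of this comparison changed direction. How much of the Aqp4 ratio belongs to depth was not tested. Sdhb, a subunit of mitochondrial complex II, was 3.41 times higher (1.59 to 8.38; 4.23). Fbxo2 was lower at 0.46 (0.34 to 0.62; 0.47), Cd74 at 0.13 (0.06 to 0.25; 0.17) and Lcn2 at 0.10 (0.05 to 0.17), the last no longer called without its top cell (0.30). For C3 the levels of 491 and 732 CPM gave no call. Rn18s-rs5 and Mir6236, whose reads come from ribosomal RNA loci, were 1.95 and 3.85 times higher (1.90 and 5.06 without the top cell).

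UT EV against MAPS addresses what the vesicles of untreated astrocytes add to the microspheres, and here the libraries differed as wholes. Of 1238 genes tested in the members 224 were called higher (18.1%) and 201 lower (16.2%), and 191 and 194 of them were still called without the top cell. Rn18s-rs5 was 10.9 times higher in UT EV members, 17.4 times in Gfap-low astrocytes and 9.95 times in microglia, so this library difference ran across cell types. Members' median mitochondrial share was 5.08% in MAPS and 1.54%, 0.814% and 2.14% in the EV libraries. The share of the differences below that belongs to the libraries and not to the vesicles cannot be told apart with 1 library each.

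Members of MAPS had the highest sum of the water, ion and glutamate list. The list holds no gene of the rule, so the water channel Aqp4 is not on it. Aqp4 was highest in IL-4/C1q EV and higher in UT EV than in MAPS, as given above. All 16 tested genes of the water, ion and glutamate list (18 in all) were lower in UT EV and 14 were called, with a median log2 ratio of -1.96 against -0.24 over all genes tested. Slc1a2, which is among the genes that the gate sums, stood at 11831, 2548, 2394 and 3645 CPM over the 4 libraries. Its level describes the choice of cells, and it was 0.22 in UT EV (0.19 to 0.24; 0.19 without the top cell). Slc1a3 stood at 4362, 752, 930 and 1001 CPM and was 0.17 (0.14 to 0.21; 0.16). In both genes the MAPS members were high and the 3 EV libraries were near each other. The same comparison gave 0.28 and 0.35 in Gfap-low astrocytes and 0.48 and 0.52 in microglia. The microglial gate allows at most 1 UMI over genes that include Slc1a2, so its microglial ratio describes that choice too. Of the 20 astrocyte identity genes 19 were lower in UT EV and 17 called. Lhx2, an astrocyte and progenitor transcription factor, was 0.07 (0.01 to 0.22; 0.05 without the top cell) and Gria2, a glutamate receptor subunit, 0.13 (0.06 to 0.25; 0.11). Scd2, a fatty acid desaturase, was 0.17 and Nwd1 0.07 (0.17 and 0.04 without the top cell). Higher in UT EV were Igfbp7, at 99 UMIs against 1, which with its counting interval is 236 times (41.3 to 9403), Hspb1 at 33.3 times (11.2 without the top cell), Mir6236 at 31.5 times (53.1) and Tmsb10 at 14.9 times (4.67). For Igfbp7 1 UT EV cell held 73.7% of the UMIs. Ctla2a was at 0 in MAPS and 52.4 times higher in UT EV if the MAPS count is set to 3, with 95.5% of its UT EV UMIs in 1 cell. All 6 tested immediate early genes were higher and 4 called. Myoc was 3.46 times higher (2.61 to 4.61; 4.61 without the top cell).

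**Figure D5:**
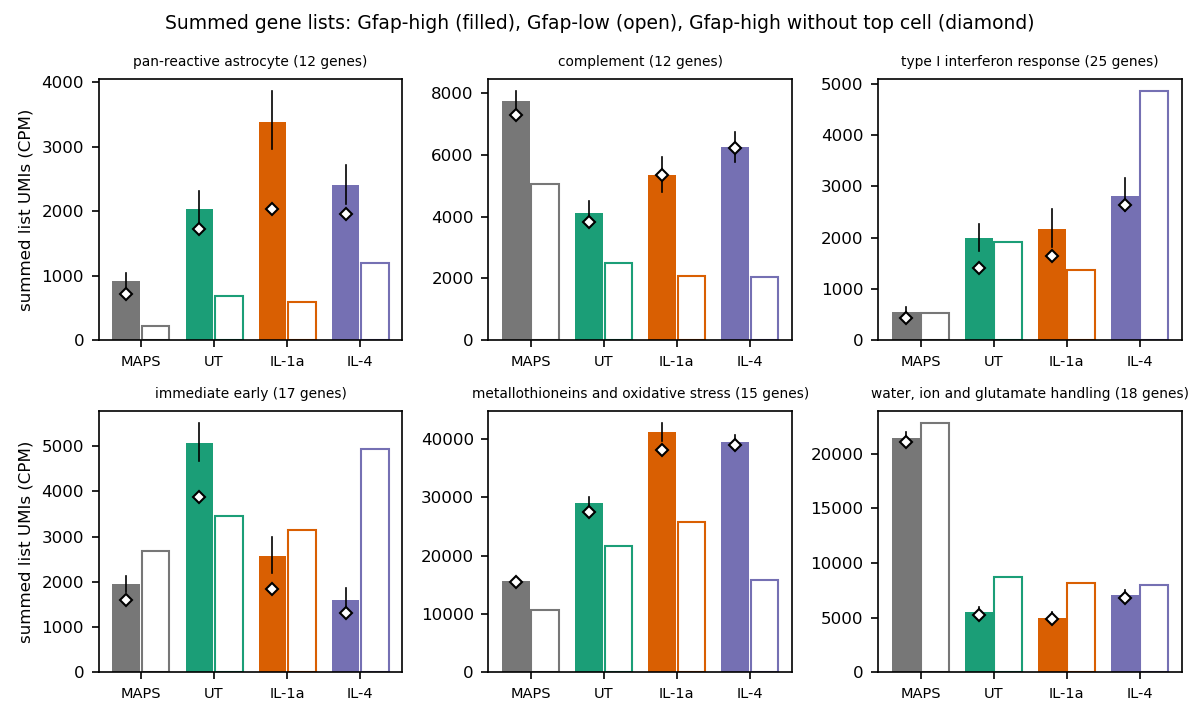
Summed CPM of 6 gene lists in the members (filled bars) and in Gfap-low astrocytes (open bars) of each library, with 95% Poisson intervals on the members and diamonds for the members' sum without its top cell. The pan-reactive and complement sums of the members lie above those of Gfap-low cells in all 4 libraries, and the water, ion and glutamate sum is highest in MAPS.

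As a group, 12 pan-reactive astrocyte genes summed to 914, 2035, 3385 and 2398 CPM in the members and to 226, 684, 586 and 1203 CPM in Gfap-low astrocytes, higher in the members of every library; Vim or, in IL-1a/TNFa/C1q EV, Lcn2 held the largest part of the sum, and without its top cell the IL-1a/TNFa/C1q EV value was 2034 CPM. The 12 complement genes summed to 7729, 4105, 5352 and 6242 CPM against 5050, 2500, 2091 and 2049 CPM, of which clusterin (Clu), a secreted chaperone, held the largest part. Metallothioneins and oxidative stress genes summed to 15744, 29107, 41120 and 39451 CPM against 10669, 21614, 25714 and 15900 CPM. The A1-type list of 12 genes stood at 301, 557, 1144 and 840 CPM and the A2-type list at 178, 451, 686 and 1076 CPM; in the comparisons with UT EV only 1 gene of each was tested (H2-D1 and S100a10), so neither list describes a state of these cells. The plot of list sums by library gives the same values.

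Type I interferon genes are the antiviral response genes induced by interferons through a promoter element with the core letters GAAANNGAA. The 25 listed genes summed to 554, 1991, 2165 and 2823 CPM in the members and to 531, 1908, 1374 and 4864 CPM in Gfap-low astrocytes. In members of IL-4/C1q EV the sum was 1.42 times that of UT EV (1.19 to 1.69); 3 genes were tested, all 3 were higher and none was called. Gfap-low astrocytes and microglia (6201 CPM) of that library were higher than its members. The members' sum was 0.58 times that of Gfap-low cells there (0.52 to 0.65), and 1.04, 1.04 and 1.58 times in the other 3 libraries. Promoter windows of the 4 listed genes with most member UMIs that hold the core are printed to show the element behind this list, 5′ to 3′ with the core in capitals. They are RefSeq sequences of the assembly GRCm38.p6, which is older than the GRCm39 of the counts.
Ifitm3: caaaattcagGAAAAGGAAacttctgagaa
Bst2: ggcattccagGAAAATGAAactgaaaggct
Ifit3: aaccagaagagGAAAGTGAAacttaccact
Isg15: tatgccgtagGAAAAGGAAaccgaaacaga

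The Ifitm3 window is chr7:141010723-141010752, the Bst2 window chr8:71537583-71537612, the Ifit3 window chr19:34583364-34583393 and the Isg15 window chr4:156200877-156200906, all printed from the minus strand; for Ifit3 this is the strand opposite to the gene. The core lies 130, 155 and 78 bases before the annotated start in Bst2, Ifit3 and Isg15, and within the first bases of the transcript in Ifitm3. On either strand, 2812 of 32851 RefSeq promoters of 300 bases (8.56%) hold the core, and 12 of the 17 listed interferon genes with a promoter in that table (70.6%) do. A match of letters is a description and not a binding site. Ifitm3, a membrane protein that blocks virus entry, had 36, 86, 86 and 110 member UMIs, and Bst2, the tetherin that holds budding virus, 17, 32, 23 and 49. Ifit3 had 3, 12, 5 and 15, and Isg15, a ubiquitin-like modifier, 1, 18, 0 and 12. After thinning, 8.89%, 25%, 35.0% and 67.6% of members had an Ifitm3 UMI, beside 4.21%, 19.0%, 12.7% and 25.9% of Gfap-low astrocytes and 9.02%, 17.9%, 15.1% and 52.6% of microglia. The IL-4/C1q EV library was the highest in all 3 cell groups.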

How the data were processed

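Single-cell 3′ libraries (10x Genomics v3) of 4 mouse brain samples, 1 per group, were analysed. The deposited matrices hold UMI counts per gene and barcode that the authors made with Cell Ranger 8.0.1, per the file headers. GRCm39 is the build in the submitters' processing notes, which also list Seurat 4.1.0, bcl2fastq 5.0.1 and a different Cell Ranger, 7.0.0. Whether the authors filtered barcodes is not given in the sources used here.

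Members were found by the rule stated at the start of the report. The members and gene lists were chosen with earlier results of these data known. UMIs were summed per gene, library and cell group and scaled to CPM of that group's UMIs (member sums 269126, 113032, 65588 and 105903). Intervals are exact at 95%: Clopper-Pearson for shares, Poisson for sums, conditional binomial for ratios. PCR copies are collapsed by UMI, and the intervals cover counting error only. A gene was called when its interval lay wholly beyond 1.5-fold, among genes with at least 50 UMIs in the 2 groups compared. A count of 0 was set to 3 for a bound.

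Named genes were the first 6 called in each direction between libraries and the first 12 higher and 8 lower against Gfap-low cells, ranked by the bound nearest 1, and at most 4 genes of each list. Mitochondrial, ribosomal protein, haemoglobin, sex-linked and unnamed genes, markers of other cells, and genes over 5-fold higher in other cells (against the members, or for lower genes against Gfap-low cells) were not ranked. Genes named outside this rule (Il4ra, Il1r1, Tnfrsf1a, Thbs4) were chosen for their role or after their values were seen.

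Microglia, oligodendrocytes and endothelial cells were gated at 4, 6 and 6 summed marker UMIs, each with at most 1 UMI summed over the astrocyte genes of the gate. Other alternatives were a Gfap share of 0.05 and 0.2%, scrublet doublets left out, a common floor of 1233 UMIs, thinning to 1000 UMIs, gene minimums of 20 and 200 UMIs, stricter myeloid exclusion and edgeR's TMM factors. Leaving out the top cell of each gene, cells with markers of other types, and the split by Myoc were added after values had been seen. Calls were tried on simulated Poisson counts, the model that the intervals assume. These counts had no spread between cells, so they cannot show how calls fare where single cells carry a gene. Tools were R 4.3.3 with edgeR 4.0.16, and Python 3.11.15 with scanpy 1.11.5, scipy 1.17.1, matplotlib 3.10.9, pandas 2.3.3 and numpy 2.4.6.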

Additional observations from a re-analysis of the deposited data

Results flagged for a closer look

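In 9 genes the members stood on opposite sides of the Gfap-low astrocytes in different libraries, each called in at least 1 library either way. With 1 library per group the difference between libraries was not tested. Ratios of CPM in members over Gfap-low cells follow in the order MAPS, UT EV, IL-1a/TNFa/C1q EV, IL-4/C1q EV.

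Ecrg4, a secreted peptide precursor abundant in choroid plexus, gave 0.31, 1.54, 4.22 and 1.70, and Igfbp7, a secreted protein of vessels, 0.10, 2.37, 1.94 and 1.17. For both, MAPS was the library on the low side. Fabp7 gave 1.27, 0.28, 2.38 and 1.58, with UT EV low.

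UT EV was the high library for the other 6. Gng11 gave 0.68, 2.49, 0.39 and 0.29, Csrp2 0.32, 4.22, 0.60 and 0.062, Junb 0.96, 2.09, 0.98 and 0.38, and Egr1 0.49, 2.58, 1.09 and 0.17. Ctla2a gave 3.39, 0.10 and 0.22 in the EV libraries and Pcp4 10.7, 0.42 and 0.54. Members of MAPS held 0 UMIs of both. With that count set to 3 the MAPS ratios were 0.54 and 0.39, and their exact intervals reached from 0 to 0.68 and 0.48. In UT EV 1 cell held 97.2% of the member UMIs of Csrp2, 95.5% of those of Ctla2a, 77.8% for Pcp4, 73.7% for Igfbp7 and 57.8% for Gng11; whether it was the same cell is not given here. The endothelial marker sum of UT EV members was 1522 CPM with that library's top cell and 265 CPM without it, and its part in these genes was not tested.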

How the results depend on the processing

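No paired analysis was possible because each group is 1 library. For the same reason no replicate could be left out. The shares of kept cells and of the astrocyte gate followed the Gfap border. At 0.2% Gfap the shares of kept cells were 0.13%, 0.243%, 0.0734% and 0.195% in the order of the report, and the shares of the gate 1.08%, 4.22%, 2.28% and 4.57%. At 0.05% they were 1.03%, 0.681%, 0.28% and 0.621% of kept cells and 8.55%, 11.8%, 8.70% and 14.5% of the gate. A floor of 1233 UMIs gave 0.321%, 0.199% and 0.227% of kept cells in MAPS, UT EV and IL-4/C1q EV, and 3.24%, 4.44% and 6.41% of the gate. When cells were thinned to 1000 UMIs before the Gfap share was taken, so that 1 UMI reached the border, MAPS had 1.04% of kept cells and 10.2% of the gate, UT EV 10.1% of the gate, and IL-1a/TNFa/C1q EV 0.260% and 8.07%. The causes were not tested.

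For IL-4/C1q EV against UT EV (7 higher, 19 lower) a minimum of 20 UMIs gave 32 lower, one of 200 UMIs gave 2 higher and 5 lower, thinning gave 0 and 3, a Gfap share of 0.2% gave 11 higher, other-cell markers left out gave 7 lower, and the top cell left out gave 4 lower. For IL-1a/TNFa/C1q EV against UT EV (9, 18) a minimum of 20 UMIs gave 17 and 29, one of 200 UMIs 3 and 6, thinning 1 and 3, stricter myeloid exclusion 4 higher, and the top cell left out 9 lower. For IL-4/C1q EV against IL-1a/TNFa/C1q EV (6, 4) a minimum of 20 UMIs gave 10 and 10, one of 200 UMIs 0 lower, the 1233 UMI floor 1 and 2, thinning 0 lower, stricter myeloid exclusion 2 lower and TMM factors 2 lower. For UT EV against MAPS (224, 201) a minimum of 200 UMIs gave 79 and 58, thinning 23 and 27, stricter myeloid exclusion 118 and 84, a Gfap share of 0.2% 111 and 79, and other-cell markers left out 145 higher. Against Gfap-low cells (14, 7) a minimum of 200 UMIs gave 8 higher, thinning 6 and 0, and stricter myeloid exclusion 3 and 3. The other 79 of 144 counts and shares stayed within 1.5 times, or within the counting interval.

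Of 438 values of single named genes under the alternatives, 344 stayed within the counting interval (against Gfap-low cells, the range over libraries), 87 moved outside it on the same side and 7 reversed. The reversed log2 ratios were those of Ctla2a (0.14) and Tmsb10 (0.19) in IL-4/C1q EV against UT EV with other-cell markers left out. In IL-1a/TNFa/C1q EV against UT EV they were Fabp7 with stricter myeloid exclusion (-0.21), Ctla2a without its top cell, which rests on the limit that a count of 3 allows (0.67), Tmsb10 thinned (0.26) and with other-cell markers left out (0.44), and Hspb1 with other-cell markers left out (0.83). Depth limits every value: in IL-1a/TNFa/C1q EV the members are 20 cells with 65588 UMIs.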

Other observations

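Genes of stem cells and the subventricular zone, the niche along the lateral ventricle, summed to 9713, 17508, 24364 and 22530 CPM in the members and to 5785, 11493, 9734 and 8111 CPM in Gfap-low astrocytes (MAPS, UT EV, IL-1a/TNFa/C1q EV, IL-4/C1q EV). Dbi held the largest part of this sum. Cell cycle genes (19 measured) summed to 673, 566, 793 and 463 CPM in the members against 972, 718, 542 and 758 CPM in Gfap-low cells. The ratios were 0.69 (0.59 to 0.80), 0.79 (0.60 to 1.02), 1.46 (1.08 to 1.94) and 0.61 (0.45 to 0.81), with IL-1a/TNFa/C1q EV on the high side. Thbs4, a thrombospondin linked to astrocytes of that niche and to injury, had UMIs in 9, 6, 4 and 5 members and was 18.7, 6.06, 43.0 and 47.4 times its Gfap-low level.

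Apoe, the main lipid carrier of the brain, was the strongest gene of the lipid list, at 26099, 47792, 59767 and 70980 CPM in the members. The 20-gene list of cholesterol synthesis and lipid export summed to 1.47 times the UT EV level in IL-4/C1q EV (1.42 to 1.53), and microglia, which also make Apoe, held 41307 to 97354 CPM of it. Chemokines and cytokines summed to 1130, 849, 869 and 850 CPM in the members against 1198, 1898, 2607 and 1904 CPM in Gfap-low cells. The sum was lower in the 3 EV libraries, and the MAPS ratio of 0.94 (0.84 to 1.06) covered 1. Of 5 tested genes Cxcl12 was called lower, and not once cells with other-cell markers were left out. Over 1 summed UMI of the vessel markers Cldn5, Pecam1, Flt1 and Ly6c1 was held by 0%, 6.12%, 10% and 1.72% of members and by 1.45%, 6.41%, 6.48% and 5.59% of Gfap-low cells. For the fibroblast and mural markers Col1a1, Col1a2, Dcn, Lum and Vtn these shares were 1.35%, 0%, 0% and 0% against 7.06%, 6.41%, 1.94% and 6.67%. Their part in the sums was not tested.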
